A study of Danio rerio with 6 samples.

Results

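The proteasome and ubiquitin genes were described in whole zebrafish larvae, colonized against germ-free. Members were chosen by gene symbol: the subunits, activators, inhibitor and assembly factors of the proteasome (psm), the enzymes that activate (uba) and conjugate (ube2) ubiquitin, the deubiquitinases (usp and uch), the cullins (cul), the modifiers of the SUMO and NEDD8 type, and the polyubiquitin genes ubb and ubc. The rule used no measured value, but it was drawn up with earlier results of these data known. It took 145 of the 15502 probesets tested. They stand for 118 of 8793 named genes, and 22 member genes were measured more than once. Of the polyubiquitin genes only ubb is described, and ubc is not analysed here. The pattern also took 3 genes that are no part of the system in the strict sense, psmc3ip, psme3ip1 and usp6nl, and these are kept apart below.

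Ubiquitin is a small protein that is joined to other proteins by a cascade of activating (E1), conjugating (E2) and ligating (E3) enzymes, and chains of it mark a protein for the proteasome. The proteasome is a barrel, the 20S core, made of alpha rings at its ends and beta rings that hold the cutting sites, with a 19S cap that binds, unfolds and feeds in the marked protein. Under interferon, vertebrate cells replace some beta subunits by immunoproteasome subunits, which favour peptides for antigen presentation. Polyubiquitin genes such as ubb encode several ubiquitin units in a row and are known as stress-responsive.

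All larvae were of strain C32, reared gnotobiotically and taken whole at 6 days post-fertilization. The germ-free group had no microbiota up to that day. The colonized group was germ-free through day 3 and was then given the microbiota of conventional zebrafish until day 6 (ex-germ-free conventionalized in the labels). Each group had 3 biological replicate pools of 28 to 80 larvae, with 1 array of the 1-colour Affymetrix type for every pool. A replicate is therefore a pool, and larvae within it were not resolved. In RNA of whole larvae, fewer cells of a type and less RNA per cell cannot be told apart.

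The values are model intensities on a linear scale, with array medians between 86.0 and 93.8. The labelled tissue, whole larvae, was checked by markers of liver, skeletal muscle, intestine, pancreas, retina and lens, and neurons. The brightest marker of each list had a mean intensity between 1143 (sncb, of neurons) and 11810 (actc1b, of muscle). Of 15502 probesets, 263 were called changed at an adjusted p under 0.05, which is 1.70%; 199 were higher in colonized larvae (1.28%) and 64 lower (0.413%). The mean correlation of an array with the others of its group was lowest for germ-free replicate 3, at 0.977 against 0.982 to 0.990 for the other 5. The title of that array also ends in a number outside the consecutive run of the other 5. What this number stands for is not given in the titles.

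The polyubiquitin transcript ubb was higher in colonized pools on 2 probesets, of which 1 was called. That call held in 9 of 15 alternatives. No proteasome subunit passed the test in either direction. Of the 145 member probesets, 1 was called higher, 0 lower and 144 were not called, a share of 0.690% beside 1.70% of all probesets tested. The median log2 change of the members was 0.04, beside 0.02 for all probesets tested. At an unadjusted p under 0.05 there were 10 members (6.90%), beside 13.2% of all probesets. The pools of the groups did not overlap for 22 members (15.2%), where all probesets gave 19.6%. In 16 of these colonized pools lay above and in 6 below, beside 12.5% and 7.08% of all probesets. The members' shares of calls, of unadjusted p under 0.05 and of groups that lie apart were below those of the whole array. The share of calls rests on 1 probeset. Members were also brighter, with a median mean intensity of 179.4 beside 91.05, and the differences in shares were not tested. All changes are differences of log2(intensity + 32), colonized minus germ-free, from 1 limma fit to all probesets, with p-values adjusted over all of them.

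**Figure D1:**
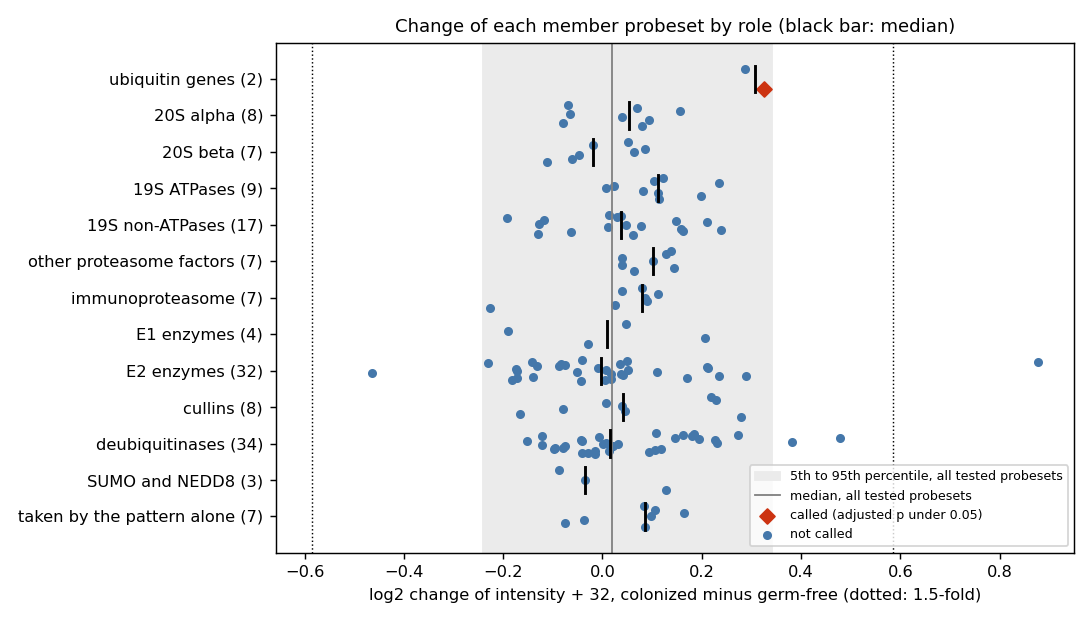
Log2 change (colonized minus germ-free) of each of the 145 member probesets, 1 point each, by role, with the number of probesets in brackets and the median of each role as a black bar. The grey band spans the 5th to 95th percentile of all tested probesets (-0.24 to 0.34); the single called member is ubb, and 1 point, ube2ql1 at 0.88, lies beyond 1.5-fold.

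The gene ubb was measured by 2 probesets, and the brighter is 1 of 11 member probesets of a type that shares sequence between transcripts. On the brighter, intensities were 6265, 6384 and 5624 in germ-free replicates 1 to 3 and 7810, 7860 and 7242 in colonized replicates 1 to 3. Each colonized pool lay above each germ-free pool. The means were 6091 ± 409 and 7637 ± 343 (SD, n = 3 pools per group), and the log2 change was 0.33 with a standard error of 0.06 and a 95% interval of 0.19 to 0.46 (limma adjusted p = 0.0279). On the dimmer probeset, intensities were 939, 1037 and 920 in germ-free pools and 1290, 1161 and 1106 in colonized pools. The groups did not overlap there either, and the log2 change of 0.29 (95% interval 0.08 to 0.49) was of like size but was not called (limma adjusted p = 0.193). The change was thus below 1.5-fold on both probesets.

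The call of ubb was not held in every setting. It was lost with quantile normalization (log2 change 0.28, adjusted p = 0.0734), with arrays centred on their medians (0.30, 0.0587) and without the intensity trend of the variance (0.33, 0.134). It was also lost without the first germ-free pool (0.35, 0.0843), without the first colonized pool (0.31, 0.120) and without the second (0.305, 0.176). It was held in the other 9 alternatives, and the estimate stayed between 0.27 and 0.36 in all 15. The background moved too. Of all probesets, 1.72% were called with 16 or with 100 added, 2.24% with a mean intensity of at least 50, 2.01% with quantile normalization, 1.89% with centred arrays and 1.77% without the trend. The share was 3.67% with array weights, 1.77% with a replicate block and 2.59% with 1 probeset per gene. It was 1.12%, 1.29% and 2.64% without germ-free replicates 1 to 3 in turn, and 0.884%, 0.735% and 1.35% without colonized replicates 1 to 3.

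**Figure D2:**
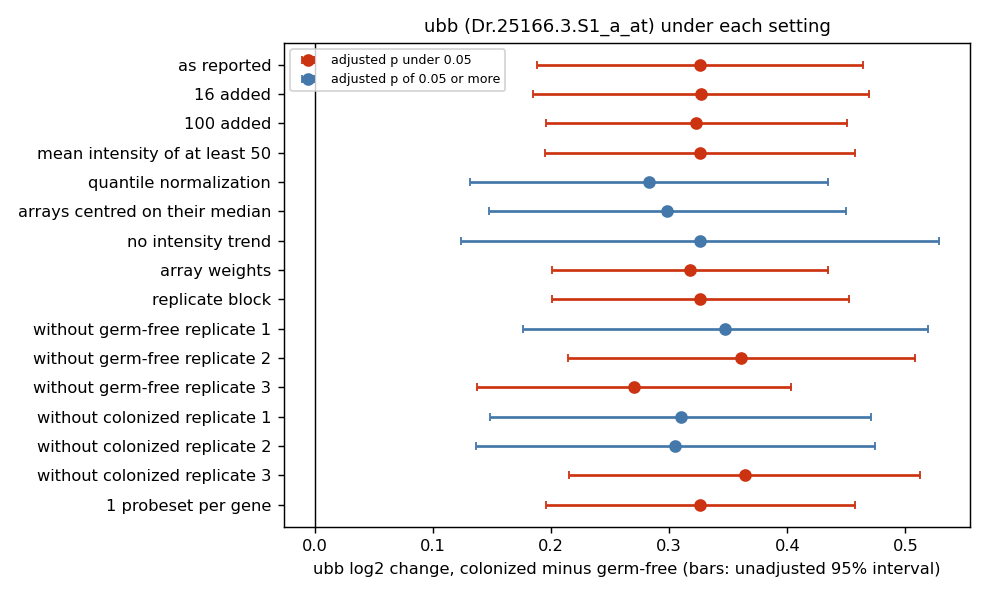
Log2 change of the brighter ubb probeset (colonized minus germ-free) with its unadjusted 95% interval, as reported and in each of 15 alternatives. Estimates lie between 0.27 and 0.36 and every interval lies above 0; red points have an adjusted p under 0.05 and blue points do not.

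Ubiquitin is also made as a fusion with a ribosomal protein, and the fusion gene rps27a was measured by 1 probeset. Its intensities were 7088, 6642 and 7112 in germ-free pools and 7185, 7217 and 7164 in colonized pools. The colonized pools lay just above the germ-free ones, by less than the spread of the germ-free pools, and the log2 change was 0.05 (95% interval -0.06 to 0.16, limma adjusted p = 0.711). The ubiquitin units of such genes are nearly alike in sequence, and whether the ubb probesets also bind transcripts of other polyubiquitin genes was not tested.

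**Figure D3:**
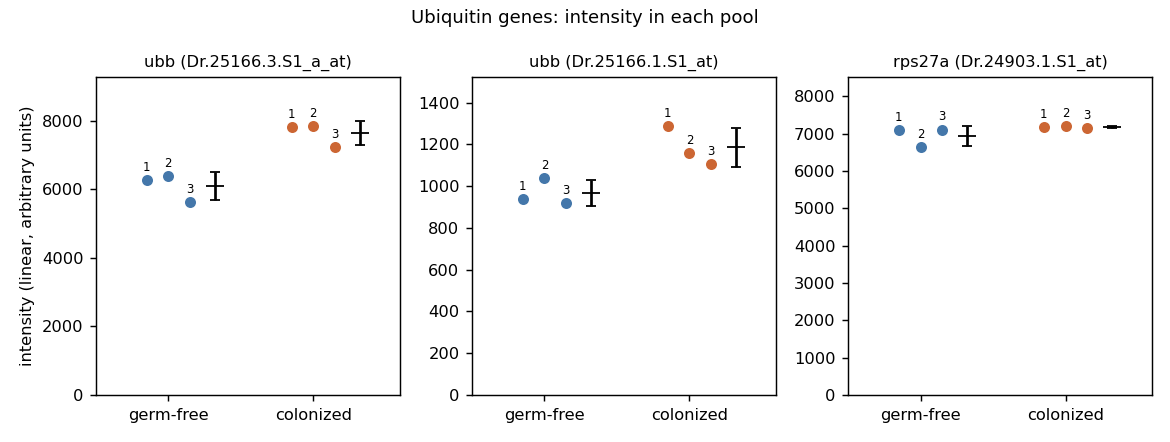
Intensity (linear) of both ubb probesets and of rps27a in each pool, numbered by replicate, with the group mean and SD (n = 3) as a black bar. For ubb all 3 colonized pools lie above all 3 germ-free pools on both probesets; for rps27a they also do, by a narrow margin, with all 6 pools at 6642 to 7217.

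Markers of several cell types also differed between the groups, and 1 of 2 controls of RNA quality did. Of leukocyte markers, 8 of 16 probesets (11 of 14 listed genes were measured) were called higher and 0 lower, and their summed intensity was 861 to 926 in germ-free and 2204 to 2643 in colonized pools. Of erythrocyte markers 2 of 4 were called higher, with sums of 1556 to 5626 in germ-free and 7835 to 13140 in colonized pools, and of liver markers 3 of 6, with sums of 10930 to 12110 and 14550 to 18080. Called lower were 5 of 5 of retina and lens (9549 to 10170 against 6489 to 7573), 3 of 5 of intestine (6763 to 7739 against 4615 to 5485) and 1 of 4 of pancreas (20080 to 22070 against 17860 to 20190). Of muscle markers 0 of 9 were called by limma (1 at an unadjusted p under 0.05). Of interferon response genes, 0 of 7 were called by limma (1 at an unadjusted p under 0.05), with sums of 561 to 628 and 584 to 637. The list includes psmb8a, which is itself a member. For acta1, control probesets at both ends of the transcript give a sign of RNA quality. The signal near its 3' end exceeded that near its 5' end by 2.35 to 2.64 (log2) in germ-free and by 2.79 to 3.00 in colonized pools. For gapdh, the other such control, it exceeded it by 0.31 to 0.60 and by 0.27 to 0.485, so that the groups overlapped. No marker probeset of these lists was at 0 on all arrays. The part of these cell types and of RNA quality in the ubb result was not tested.

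Of the 20S core, 0 of 15 probesets were called by limma, and 0 had an unadjusted p under 0.05. Over all probesets these shares were 1.70% and 13.2%, which stand beside the counts of each role below as well. At 1.70%, 0 calls in so few probesets says little. The 15 probesets of the core had a median log2 change of 0.04, from -0.11 to 0.16. Above 0 lay 5 of 8 alpha and 3 of 7 beta probesets, beside 55.2% of all tested probesets. With quantile normalization 4 of 8 and 1 of 7 did (47.2% of all probesets). In 0 of 15 did the groups lie apart, beside 19.6% of all probesets. Among the alpha subunits, which form the outer rings and the gate, psma8 had 527, 435 and 501 in germ-free and 517, 500 and 548 in colonized pools, with a log2 change of 0.09. The paralogs psma2a and psma2b differed in sign, at -0.08 (95% interval -0.32 to 0.16) and 0.16 (-0.10 to 0.41), and psma6l lay at -0.07. The difference between the paralogs was not tested.

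The beta subunits that carry the cutting sites are psmb5, psmb6 and psmb7. Of these, psmb7, the trypsin-like site, had 633, 618 and 593 in germ-free and 651, 657 and 624 in colonized pools. Its log2 change was 0.06 (95% interval -0.13 to 0.25), and -0.01 with quantile normalization. The caspase-like site psmb6 had means of 457 ± 45.8 and 473 ± 25.2, and the chymotrypsin-like site psmb5 had 165 ± 19.9 and 158 ± 15.9. For these 3 subunits the interval of the change reached from -0.29 at the lowest to 0.28 at the highest. Of the structural beta subunits, psmb2 lay at -0.11, psmb3 at -0.06 and psmb4 at 0.09, and none of the 3 was called (limma adjusted p 0.673 to 0.871).

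Of the 19S cap, 0 of 26 probesets were called by limma, and 1 had an unadjusted p under 0.05. The ATPases, which unfold the substrate, had a median of 0.11 over 9 probesets. These stand for 7 genes, of which psmc1b had 3 probesets, at log2 changes of 0.01 to 0.12. All 9 probesets lay above 0, where 55.2% of all tested probesets did. With quantile normalization 8 of 9 did (47.2% of all probesets), and with centred arrays 7 of 9 (47.4%). With array weights 5 of 9 lay above 0 (50.2%), without germ-free replicate 2 it was 6 (50.6%), and without germ-free replicate 3 (54.4%) or colonized replicate 1 (57%) it was 8. Among them psmc2 had 433, 373 and 380 in germ-free and 435, 436 and 503 in colonized pools. The colonized pools lay just above, with a log2 change of 0.20 (95% interval -0.03 to 0.43, limma adjusted p = 0.453). The change of psmc6 was 0.23 (-0.08 to 0.54). For psmc5, germ-free replicate 3 stood apart at 395 against 234 and 229 in the other germ-free pools, and the colonized pools lay between, at 285 to 315.

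The non-ATPase subunits, which make up the base, the lid and the ubiquitin receptors of the cap, had a median of 0.04 over 17 probesets. Of the 17, 12 lay above 0 (55.2% of all tested probesets), and 7 with quantile normalization (47.2%). This group by symbol includes psmd5, psmd9 and psmd10, which are known as chaperones of cap assembly rather than subunits. The widest departure downwards was that of psmd3, a lid subunit, with 362, 329 and 363 in germ-free and 317, 308 and 285 in colonized pools. The groups did not overlap, and the log2 change was -0.19 (95% interval -0.405 to 0.02, limma adjusted p = 0.434). The ubiquitin receptor psmd4b lay at -0.13 and its paralog psmd4a at 0.08. The lid subunit psmd12 lay at 0.21 on one probeset and at -0.13 on a dim one, with intensities of 16.8 to 32.7.

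Only psmd11b, a lid subunit known in yeast to clamp the cap to the core, had an unadjusted p under 0.05 among the 41 probesets of core and cap. It was named after its values were seen. Its intensities were 77.2, 62.1 and 69.8 in germ-free and 96.5, 84.5 and 82.7 in colonized pools. The groups lay apart, with a log2 change of 0.24 (95% interval 0.02 to 0.45), but the adjusted p was 0.323. The scaffold subunit psmd1 had, on its brighter probeset, 504, 458 and 283 in germ-free and 504, 494 and 381 in colonized pools. There the log2 change was 0.16 with all arrays and -0.07 without germ-free replicate 3, the lowest pool. The other psmd1 probeset had 315, 329 and 241 against 310, 301 and 300, a change of 0.05.

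How closely these arrays bound the change of the proteasome can be read from the intervals. For all 41 probesets of core and cap, the unadjusted 95% interval lay within 1.5-fold on either side (0.585 on the log2 scale). The bounds ran from -0.42 at the lowest to 0.583 at the highest, that of a psmd1 probeset, which was only just within. The value added before log2 shrinks fold changes, most on the dim probesets, which reach down to a mean intensity of 22.3. The intervals therefore bound the change of dim subunits less closely than they appear to. The interval lay within 1.5-fold for 140 of 145 members and for 90.3% of all probesets tested. The 5 members with wider reach were ube2ql1, ube2e3, usp2a, usp13 and usp36.

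The subunits of core and cap also differed between pools of the same condition. Over the 41 probesets, the mean departure from a probeset's own mean on the log2 scale was 0.09, -0.09 and -0.07 in germ-free replicates 1 to 3 and 0.02, -0.02 and 0.05 in colonized replicates 1 to 3. Germ-free replicate 1 held the highest of the 6 values for 16 of the 41, colonized replicate 3 held it for 14, and germ-free replicates 2 and 3 held the lowest for 13 and 14. For the core alone, the first germ-free pool was highest for 9 of 15 and germ-free replicate 3 lowest for 7 of 15. Over all 15502 probesets the departures were 0.03, -0.06 and -0.02 in germ-free and 0.00, 0.01 and 0.04 in colonized pools. There germ-free replicate 1 was highest for 18.7% and colonized replicate 3 for 23.1%. Lowest were germ-free replicates 2 and 3, for 28.3% and 22.9%. For the 41 probesets of core and cap these shares were 39%, 34.1%, 31.7% and 34.1% in the same order. These figures describe the arrays and were not tested.

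**Figure D4:**
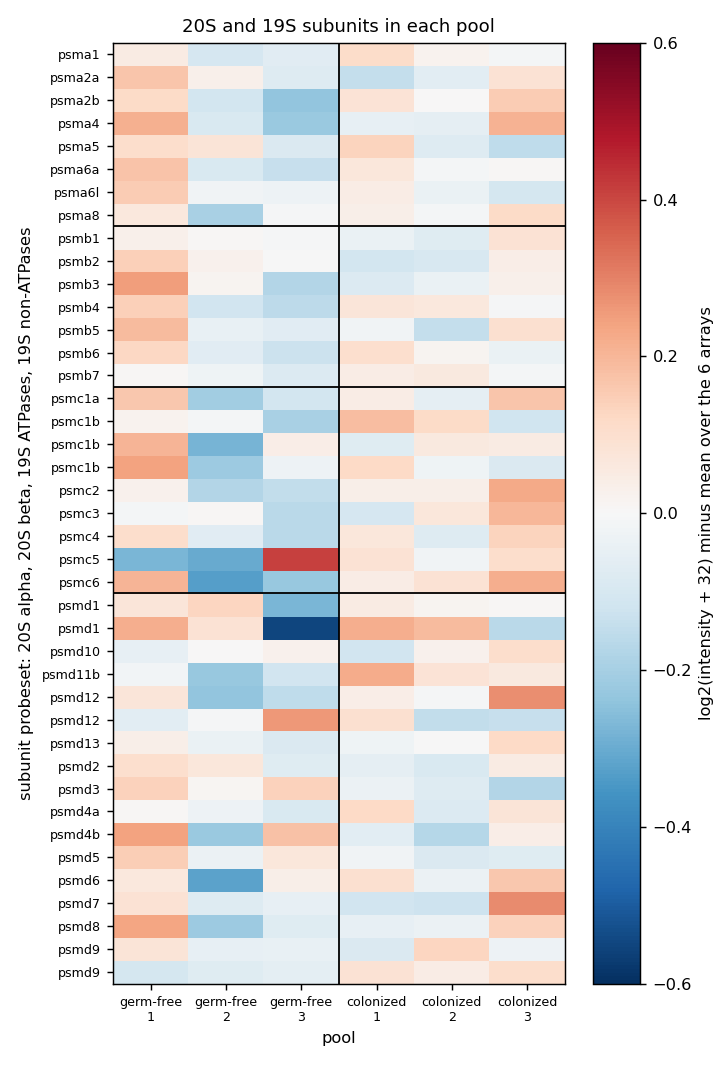
Departure of log2(intensity + 32) from the mean over the 6 arrays for each of 41 probesets of 20S and 19S subunits (rows) in each pool (columns); red is above and blue below the mean. Germ-free replicate 1 is mostly red and germ-free replicates 2 and 3 mostly blue. The groups lie apart in 4 of the 41 rows (9.76%, beside 19.6% of all probesets).

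Of other proteasome factors, 0 of 7 probesets were called by limma (0 at an unadjusted p under 0.05). The 7 probesets stand for 5 genes. All 7 lay above 0, with a median of 0.10, where 55.2% of all tested probesets lay above 0. It was 6 of 7 with array weights (50.2% of all probesets). It was also 6 on leaving out germ-free replicate 2 (50.6%), germ-free replicate 3 (54.4%) or colonized replicate 3 (52.6%). The assembly chaperone psmg1, which helps to build the alpha ring with psmg2, had 255, 280 and 260 in germ-free and 313, 291 and 279 in colonized pools. Germ-free replicate 2 lay just above colonized replicate 3, and the log2 change was 0.14 (limma adjusted p = 0.583). Its partner psmg2 had 209, 187 and 185 against 216, 210 and 225, with a log2 change of 0.14 (adjusted p = 0.559). The inhibitor psmf1 lay at 0.10 and 0.04 on its 2 probesets, and the nuclear activator psme3 at 0.06.

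The immunoproteasome genes were set apart, and 0 of 7 were called by limma (1 at an unadjusted p under 0.05). Their median log2 change was 0.08. Mean intensities ran from 27.8 to 94.5, beside a median of 91.05 over all tested probesets. The subunit psmb9a had 100, 106 and 107 in germ-free and 90.1, 88.5 and 75.5 in colonized pools. Every colonized pool lay below every germ-free pool, with a log2 change of -0.23 (95% interval -0.43 to -0.02, limma adjusted p = 0.329). The subunit psmb8a had 56.8, 46.3 and 56.1 in germ-free and 54.2, 71.7 and 54.3 in colonized pools, so that only colonized replicate 2 stood above the others.

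The remaining beta subunits of this type, psmb10, psmb12 and psmb13a, had means of 25.9 ± 0.990, 35.5 ± 4.74 and 31.4 ± 3.75 in germ-free and 29.7 ± 8.86, 36.6 ± 0.562 and 33.2 ± 2.24 in colonized pools. The activator genes psme1 and psme2, whose products form the ring known as PA28, lay at 0.09 and 0.085. For psme1 the pools ranged from 53.5 to 81.6 and from 64.5 to 85.3. The interval for the 7 genes reached from -0.43 to 0.37, and on the dim ones the added 32 shrinks a fold change. Beside them, the ubiquitin-like modifier isg15, an interferon target in vertebrates, had 99.2, 91.4 and 84.7 in germ-free and 88.8, 71.2 and 70.2 in colonized pools (log2 change -0.19, adjusted p = 0.463).

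Of E1 enzymes, 0 of 4 were called by limma, also at an unadjusted p under 0.05. The main ubiquitin-activating enzyme uba1 had 430, 344 and 367 in germ-free and 432, 414 and 485 in colonized pools. Germ-free replicate 1 lay within the colonized range, and the log2 change was 0.21 (95% interval -0.04 to 0.45, limma adjusted p = 0.466). The SUMO E1 subunit uba2 lay at -0.19, with 188, 154 and 194 against 136, 135 and 191, and the NEDD8 E1 subunit uba3 at -0.03.

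Of E2 enzymes, 0 of 32 probesets were called by limma, beside 1.70% of all probesets. An unadjusted p under 0.05 was found for 2 (6.25%, beside 13.2%), and the pools lay apart in 4 (12.5%, beside 19.6%). The E2 probesets were spread evenly, 16 above 0 and 16 below, with a median of 0.00. The lowest was ube2e3, with 307, 209 and 343 in germ-free and 196, 186 and 203 in colonized pools. The colonized pools lay close together and below all germ-free pools, of which replicate 2 stood near them. The log2 change was -0.46 (95% interval -0.80 to -0.12, limma adjusted p = 0.210). Without germ-free replicate 2, the nearest germ-free pool, it was called at -0.65 (adjusted p = 0.0220), and with array weights at -0.52 (0.0417). It was called in no other alternative, and without germ-free replicate 3 it was -0.33 (limma adjusted p = 0.308). The other probeset of ube2e3 had 246, 263 and 320 against 251, 240 and 230, with overlapping groups and a change of -0.17.

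The highest change among all members, that of ube2ql1, rested on 1 pool. One probeset had 217, 189 and 18.7 in germ-free and 202, 248 and 231 in colonized pools. Germ-free replicate 3 stood far below every other pool, and the log2 change of 0.88 (95% interval -0.18 to 1.94, adjusted p = 0.471) fell to 0.14 without it. The other probeset of this gene had 101, 92.8 and 82.8 against 89.6, 80.8 and 64.9, with a change of -0.17. Of the members, only this probeset exceeded 1.5-fold, where 301 of all probesets (1.94%) did.

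Other E2 enzymes differed less between the groups. The gene ube2g1b, whose human counterpart works with cullin ligases, had 321, 243 and 318 in germ-free and 354, 393 and 345 in colonized pools. The groups lay apart, at a log2 change of 0.29 (limma adjusted p = 0.336), and its dimmer probeset overlapped at 0.11. The widely acting ube2d2 had 454, 353 and 402 against 328, 349 and 335, with groups just apart (log2 change -0.23, adjusted p = 0.402), and ube2d3 had 600 ± 80.2 against 615 ± 14.5.

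Of cullins, the scaffolds of a large class of E3 ligases, 0 of 8 probesets were called by limma (1 at an unadjusted p under 0.05). The pools lay apart in 3 of 8 (37.5%, beside 19.6% of all probesets), each time with colonized above (12.5% of all probesets). The scaffold cul1b had 377, 455 and 345 in germ-free and 468, 515 and 458 in colonized pools. Germ-free replicate 2 came close to the colonized pools, and the log2 change was 0.28 (95% interval 0.02 to 0.535, limma adjusted p = 0.330). Its paralog cul1a had means of 206 ± 27.8 and 207 ± 29.9. For cul4b the brighter probeset overlapped (change 0.04) and the other did not (163, 169 and 125 against 183, 177 and 189, change 0.23). The gene cul5a lay at -0.17. Its paralog cul5b, named after its values were seen, had means of 68.3 and 84.3 with groups apart (change 0.22, limma adjusted p = 0.426).

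Of deubiquitinases, which remove or trim ubiquitin chains, 0 of 34 probesets were called by limma (3 at an unadjusted p under 0.05). Their median was 0.02, and the pools lay apart in 7 (20.6%, beside 19.6% of all probesets). In 6 of these colonized pools lay above and in 1 below, where all probesets gave 12.5% and 7.08%. The nearest to a call was usp2a, known in mammals to follow the circadian clock. It had 400, 308 and 370 in germ-free and 510, 553 and 470 in colonized pools. All colonized pools lay above all germ-free pools, and the log2 change was 0.48 (95% interval 0.22 to 0.73, limma adjusted p = 0.0809). With array weights it was called at 0.44 (adjusted p = 0.0421), and in no other alternative.

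Next came usp13, with 392, 366 and 381 in germ-free and 518, 456 and 542 in colonized pools. The germ-free pools lay within a narrow range below all colonized ones, with a log2 change of 0.38 (95% interval 0.16 to 0.60, limma adjusted p = 0.104). The dim usp20, named after its values were seen, had 52.9, 49.3 and 57.8 against 65.0, 66.8 and 64.9, with a change of 0.19 (adjusted p = 0.359). The deubiquitinases bound to the proteasome cap, usp14 and uchl5, were not called. For usp14 the change was 0.18, and for uchl5 it was -0.10 and -0.08 on its 2 probesets.

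The deubiquitinase uchl1, known as a marker of neurons, had means of 208 ± 9.0 and 207 ± 27.0, a change of -0.01. Of neuron markers, 2 of 16 probesets were called lower and 0 higher, with summed intensities of 8131 to 8959 in germ-free and 7566 to 8330 in colonized pools. On the other side, usp7, which acts on p53 and its ligase mdm2, lay at -0.15 and -0.08 on its 2 probesets, and the endosomal usp8 at -0.12, with germ-free replicate 3 highest at 258 (0.01 without that pool).

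**Figure D5:**
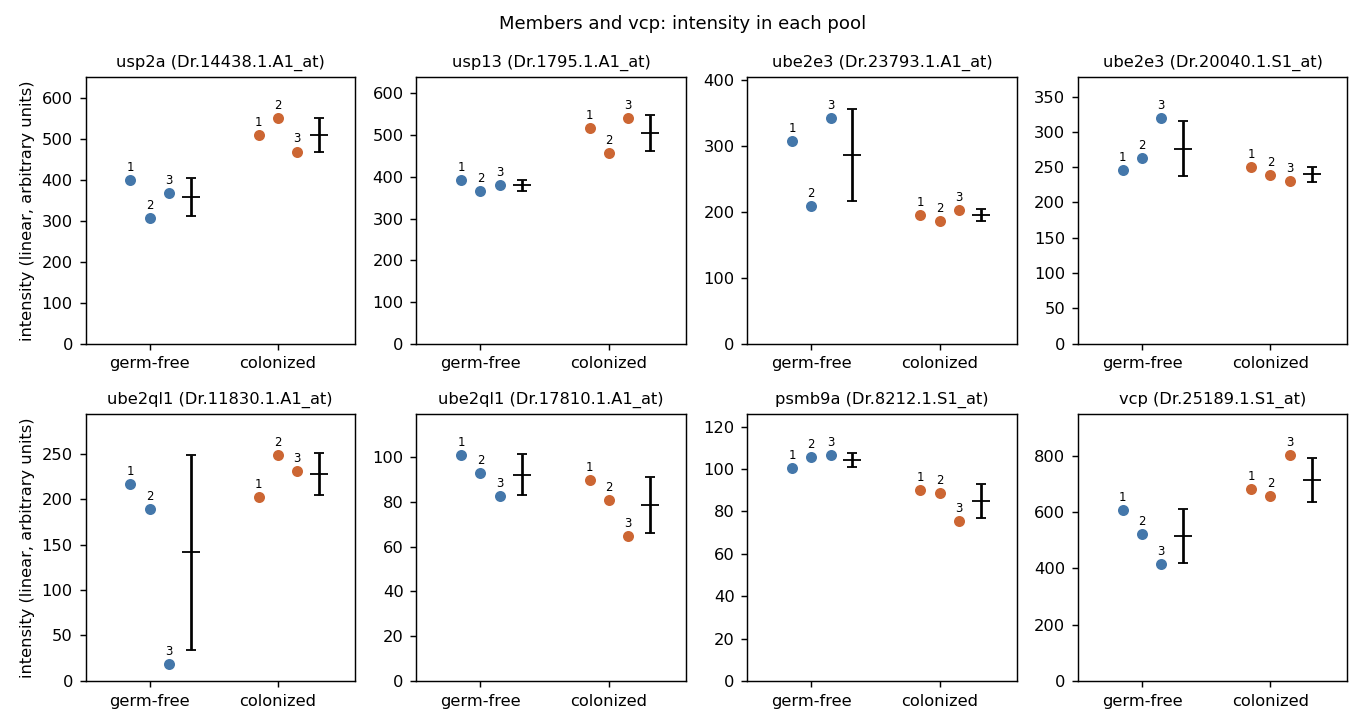
Intensity (linear) in each pool, numbered by replicate, for the 4 members with the widest changes (ube2e3 and ube2ql1 on both probesets), psmb9a and vcp, with the group mean and SD (n = 3) as a black bar. Groups lie apart for usp2a, usp13, psmb9a, vcp and 1 ube2e3 probeset; in ube2ql1, 1 germ-free pool lies at 18.7 on 1 probeset.

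Of the modifiers related to ubiquitin, 0 of 3 were called by limma (0 at an unadjusted p under 0.05). The SUMO genes sumo2b and sumo3a had means of 735 ± 122 and 577 ± 74.8 in germ-free and 800 ± 53.9 and 540 ± 49.3 in colonized pools. The gene nedd8, whose product activates cullins, had 183, 194 and 159 against 155, 181 and 185, so that the groups overlapped. The 3 genes taken by the pattern alone, with 7 probesets at mean intensities of 14.4 to 61.3, included 0 called and 0 at an unadjusted p under 0.05. Of these, psme3ip1 had means of 62.5 ± 15.1 and 60.2 ± 15.7 on its brightest probeset.

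Other genes of the pathway were taken from a list of 122 symbols, of which 85 were measured by 104 probesets. The list held ubiquitin receptors and shuttles, the segregase vcp and its partners, E3 ligases, the COP9 signalosome and the factors that control proteasome genes. Of these, 0 of 104 were called by limma, 17 had an unadjusted p under 0.05 (16.3%, beside 13.2% of all probesets), and the median log2 change was 0.06. The pools lay apart in 26 (25%, beside 19.6%), 22 of them with colonized above and 4 below. Over all probesets these shares were 12.5% above and 7.08% below. The segregase vcp, which pulls marked proteins out of complexes and membranes, had 607, 521 and 417 in germ-free and 682, 657 and 802 in colonized pools. All colonized pools lay higher, at a log2 change of 0.46 (95% interval 0.15 to 0.76), and the adjusted p was 0.160. The widest change in the list was that of trim63a, named after its values were seen. It had 540, 486 and 463 in germ-free and 768, 884 and 575.5 in colonized pools, a log2 change of 0.53 (limma adjusted p = 0.118). It was called with array weights and without colonized replicate 3, and in no other alternative.

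The cargo receptor sqstm1, which links ubiquitin to autophagy, had 365, 399 and 507 in germ-free and 498, 565 and 549 in colonized pools. Germ-free replicate 3 lay within the colonized range, and the log2 change was 0.33 (limma adjusted p = 0.280). Without that pool the change was 0.46 and was called (adjusted p = 0.0397), and in no other alternative. The genes nfe2l1a and nfe2l1b, of the factor that in mammals raises proteasome transcription when the proteasome is blocked, are not analysed here. The nearest to a call in the list was pias4a, a SUMO ligase, on 1 of its 4 probesets, named after its values were seen. It had 82.0, 60.8 and 63.6 in germ-free and 42.4, 43.6 and 38.8 in colonized pools, a log2 change of -0.45 (adjusted p = 0.0594), and the other probesets lay between -0.06 and 0.135. It was called in 4 alternatives, at -0.47 with quantile normalization, -0.48 with centred arrays, -0.52 with array weights and -0.48 without germ-free replicate 3.

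Where a gene had several probesets, they did not always tell the same. Of 22 such member genes, the probesets had 1 sign in 14 and both signs in 8. Among the 8 were ube2ql1 and psmd12, described above, and usp37, whose 4 probesets lay between -0.04 and 0.18. With 1 probeset per gene, 1 of 118 member genes was called, ubb, beside 228 of 8793 genes (2.59%).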

How the data were processed

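Whole-larva RNA of 6 pools was measured, with groups and replicate numbers as labelled. What the authors deposited is 1 linear intensity for each probeset and array, from dChip, with arrays scaled to an invariant set and probesets modelled as PM-MM (series' design text). Of 15617 rows, 115 control probesets were left out. Symbols are the platform's, checked by Entrez identifier against the GRCz12tu gene table, which held all 145 members. Values were taken as log2(intensity + 32) and fitted with limma 3.58.1 (R 4.3.3), group as the only term, with an intensity trend, two-sided tests and Benjamini-Hochberg adjustment over 15502 probesets; the fit was tested on simulated data. The number of pools limits the precision. Members and lists were chosen with earlier results of these data known. The genes taken by the pattern alone were set apart after their symbols, not their values, were seen. Named genes are called members, ubiquitin and immunoproteasome genes, in each role the brightest and the 2 largest rises and falls with a group mean of at least 100, and called or fixed pathway genes. The genes psmb5, psmb6, psmc1b, psmc5, psmd4a, psmd11b, psmf1, psme3, cul1a, cul5b, usp14, usp20, usp36, usp37, uchl1, uchl5, pias4a and trim63a were named after their values were seen. Alternatives were 16 or 100 added, a mean intensity of at least 50, quantile normalization, median centring, no trend, array weights, a replicate block, 1 probeset per gene, and leaving out each array. A planned count of promoter motifs was not run.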

Additional observations from a re-analysis of the deposited data

How the results depend on the processing

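Of 818 values recomputed in 15 alternatives, 788 were counted as unchanged, and 0 called values changed sign. The log2 change of a gene counted so if it kept its direction and side of the threshold or moved by less than the spread between pools. An uncalled change could thus move far and still count as unchanged. That of ube2ql1 did so, from 0.88 to 0.14 without germ-free replicate 3. The values cover the genes named by the rule, counts of calls and medians. Of the named genes only ubb was called with all arrays, so the absence of sign changes among called values rests on 1 probeset. Counts of called probesets were judged by the size of their move, so that 200 without germ-free replicate 2 (263 with all arrays) counted as unchanged. The medians of core and cap subunits and of all probesets were set as unchanged beforehand, without a yardstick, and these entries are among the 788. The median of core and cap subunits went from 0.0508 to -0.0003 with quantile normalization, -0.0134 with array weights and 0.1232 without germ-free replicate 1. Member probesets called numbered 0 with quantile normalization, with median centring and without the intensity trend, and 3 with array weights; leaving out 1 array gave 0 to 2. The log2 change of ubb was not called with quantile normalization (0.28), median centring (0.30) or no intensity trend (0.33), and lay between 0.27 and 0.36 on leaving out 1 array. Called genes of the pathway list numbered 1 with quantile normalization and with median centring (pias4a both times, on 1 of its 4 probesets), 2 with array weights, and 0 to 2 on leaving out 1 array. All probesets called numbered 569 with array weights and 114 to 410 on leaving out 1 array. The number of proteasome subunits called was 0 in every alternative run. The cause of these moves was not tested. The median log2 change lay between -0.0019 and 0.08 for the members and between -0.0134 and 0.12 for subunits of core and cap. With the replicate number as a block, 274 probesets and 1 member, ubb, were called (log2 change 0.33, limma adjusted p = 0.0212). Same-numbered arrays had correlations of -0.08, 0.10 and 0.07 between their departures from the group means. Not every array was closest to its own number. With 3 arrays per group, such weak correlations cannot show whether the numbers pair the pools. Sign changes were counted only among the genes named by the rule, not among all members and pathway genes. Of 20 such changes without a call, 19 were moves of less than 1 SD, the exception being psmb7 with quantile normalization. That yardstick for uncalled values was set after the data were seen. Members outside this count also changed sign, as the counts of 19S ATPase probesets above 0 show. The promoter motif count was not run.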
